A study of Mus musculus with 2 samples.

Results

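The genes described are 40 cytosolic and mitochondrial heat shock proteins, their co-chaperones and their transcription factors, taken by symbol from the 44792 rows of the deposited table. All 40 had a row. They were compared between 2 RNA sequencing libraries of OCCM-30, a wild-type immortalized mouse cell line with features of cementoblasts, the cells that form the mineralized cementum of tooth roots. The first library was made from cells exposed to compressive force and the second from control cells, and both cultures grew in the same serum-containing medium. How strong the force was and how long it lasted was not given in the sources used here. With 1 library in each group, no difference has a replicate check, no p-value was computed, and every interval covers counting error only. The values compare these libraries and not the conditions.

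Heat shock proteins are molecular chaperones that bind unfolded or misfolded proteins. Hsp70 chaperones bind short hydrophobic stretches in a cycle driven by ATP, J-domain (Hsp40) proteins bring them substrates and start ATP hydrolysis, and nucleotide exchange factors reset them. Hsp90 acts later on client proteins such as kinases and steroid receptors, small heat shock proteins hold unfolded proteins without ATP, and the Hsp60 and Hsp10 chaperonin folds proteins inside mitochondria. Under proteotoxic stress, heat shock factor 1 (Hsf1) binds heat shock elements in the promoters of many of these genes. The label of the group does not cover every member, since Hspa13 is a microsomal protein, Dnajb12 and Dnajb14 sit in the endoplasmic reticulum membrane with their J domain in the cytosol, and Hspb11 is a subunit (IFT25) of the intraflagellar transport machinery of cilia.

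Heat shock elements are inverted repeats of the unit GAA with 2 bases between units, and a functional element usually has several units. RefSeq promoter windows of build GRCm38.p6, from 250 bases before to 50 after a start site, were found for 33 of the 40 members. Hspa8, Hspa9, Hspa13, Hsp90aa1, Hsp90ab1, Cryab and Hsf1 had none. Both strands were searched for 2 units, which are GAANNTTC or TTCNNGAA, and for 3 units, which are GAANNTTCNNGAA or TTCNNGAANNTTC and contain 2-unit matches. Each motif reads the same on the opposite strand or is the other orientation of its pair. The stretches below are those of the 4 members that were at least 1.3-fold lower in the compressed library, of Hspa1a as the near-identical neighbour of Hspa1b, and of Dnajb6 as a member with 3 units and a ratio near 1. Capitals mark the matched units.
Hspe1, upstream of its start and of an inner Hspd1 start, chr1:55088018-55088137, plus strand: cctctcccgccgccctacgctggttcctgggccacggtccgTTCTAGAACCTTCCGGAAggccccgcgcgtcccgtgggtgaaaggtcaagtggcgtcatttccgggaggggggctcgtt
Hsph1, upstream of the start, chr5:149636337-149636436, minus strand: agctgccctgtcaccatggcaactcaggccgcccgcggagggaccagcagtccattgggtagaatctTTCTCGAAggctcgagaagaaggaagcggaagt
Hsph1, downstream of the start, chr5:149636287-149636316, minus strand: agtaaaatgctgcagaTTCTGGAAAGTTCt
Dnaja1, chr4:40722278-40722427, plus strand: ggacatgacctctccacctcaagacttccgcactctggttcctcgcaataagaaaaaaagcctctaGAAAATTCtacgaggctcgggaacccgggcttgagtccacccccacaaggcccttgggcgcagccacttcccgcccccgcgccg
Hspa1b, chr17:34959239-34959388, minus strand: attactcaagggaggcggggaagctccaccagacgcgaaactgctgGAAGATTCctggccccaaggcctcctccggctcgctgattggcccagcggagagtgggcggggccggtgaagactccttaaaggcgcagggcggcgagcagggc
Hspa1a, chr17:34972157-34972306, minus strand: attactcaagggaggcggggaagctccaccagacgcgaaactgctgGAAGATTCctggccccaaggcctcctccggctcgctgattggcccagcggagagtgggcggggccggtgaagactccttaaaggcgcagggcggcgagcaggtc
Dnajb6, chr5:29735828-29735897, plus strand: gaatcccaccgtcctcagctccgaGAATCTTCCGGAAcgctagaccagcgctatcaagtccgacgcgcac

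The 2 libraries were of similar depth, with totals of 24296292 counts under compression and 25049919 in the control, and 21227 and 20945 genes detected. Of 9 cementoblast and bone matrix markers, 7 had a CPM (read counts scaled to library size) of 1 or more in either library, and none differed by 1.3-fold. Their ratios of compressed to control ran from 0.787 (95% counting interval 0.757 to 0.819) for the osteoblast transcription factor Runx2, with 4416 counts against 5788, and 1.03 for Col1a2, to 1.09 for Sparc and 1.10 (1.06 to 1.15) for Spp1. Bone sialoprotein (Ibsp), a defining cementoblast marker, had 0 counts in both libraries, and osteocalcin (Bglap) had 12 and 11. Of 12 markers of other cell types, 5 passed that minimum, at no more than 6.18 CPM, and Ptprc, Krt5 and Epcam were at 0 in both libraries. All 5 had intervals that included 1, with ratios of 0.677 for Pecam1, 0.915 for Csf1r, 1.12 for Col2a1 and 1.24 for Vwf at the ends.

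The 40 heat shock genes were close to balanced between the libraries. Together they took 0.780% of counts in the compressed library (exact 95% Clopper-Pearson interval 0.776 to 0.783) and 0.816% in the control library (0.812 to 0.819). In bulk RNA such as this, a different mix of cells and less RNA per cell cannot be told apart. The 5 members with the most reads, Hsp90ab1, Hspa8, Hsp90aa1, Hspa9 and Hspd1, held 64.9% and 63.3% of these counts. Of the 40 members, 38 reached 1 CPM in either library. Ratios of compressed to control were above 1 in 17 of them (44.7%) and below 1 in 21 (55.3%). The shares of all rows were 48.6% and 51.4%. The median log2 ratio of the 38 was -0.03, against -0.01 for all 14001 rows above the same minimum. The members below it were Hspa1l, with 1 count against 0, and Hspb7, with 6 against 2, counts too low for a difference to be detectable.

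Few members passed a fold limit, which here also required a 95% counting interval that excluded 1. At 2-fold, 1 member was higher (2.63% of the 38), where 3.06% of all rows were, and 0 were lower, where 0.929% of all rows were. At 1.3-fold, 2 members were higher (5.26%), against 12.2% of all rows, and 4 were lower (10.5%), against 8.92% of all rows. These shares of members lie near those of all rows except for the higher direction at 1.3-fold, where 2 genes is too small a count to read. The higher members were Hspb11 and Hspb6, and the lower ones were Hsph1, Hspe1, Hspa1b and Dnaja1. Among the others, 7 had intervals wholly above 1 and 12 wholly below, but stayed within 1.3-fold. Without a fold limit, intervals lay above 1 in 23.7% and below 1 in 42.1% of the 38 members, against 26.3% and 28.6% of all rows, shares that also depend on read counts.

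**Figure D1:**
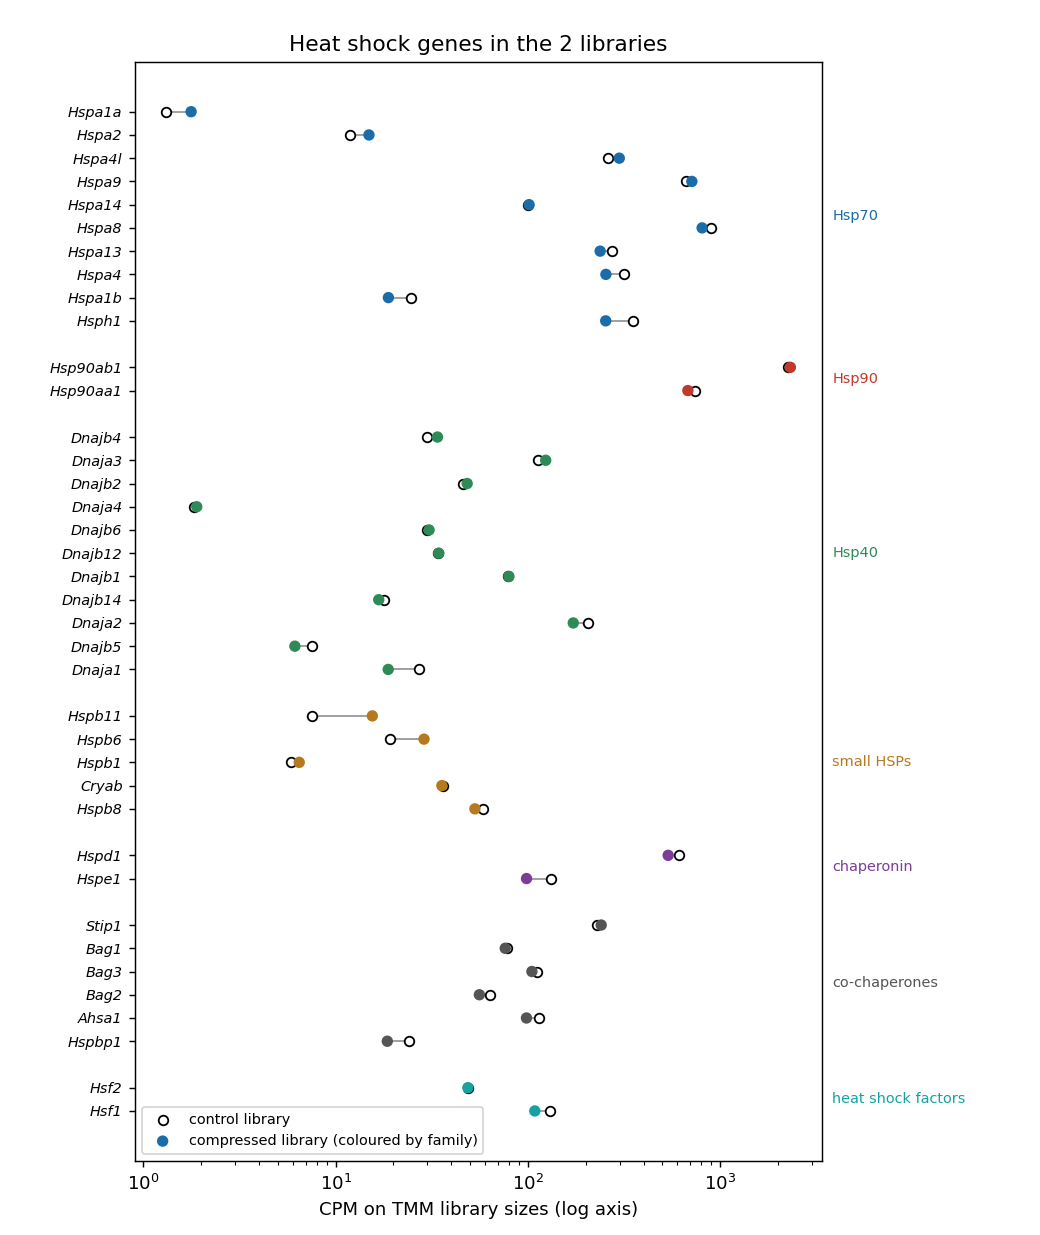
Level of each of the 38 heat shock genes above the minimum, in CPM on a log axis, with 1 point for the control library (open) and 1 for the compressed library (filled, coloured by family). The points of most genes nearly coincide, and the widest gaps are those of Hspb11, Hspb6, Dnaja1 and Hsph1.

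Inducible and constitutive Hsp70 genes were both present, and none was past 2-fold. Hspa8, the constitutive cytosolic Hsp70 (Hsc70), had 19590 counts under compression and 22471 in the control, a ratio of 0.8996 (0.882 to 0.917). Hspa1b, a stress-inducible Hsp70, had 457 counts against 620, or 18.8 against 24.7 CPM, and was 1.31-fold lower (1.16 to 1.49). Hspa1a, the other inducible gene, had 43 counts against 33, a ratio of 1.34 with a wide interval that included 1 (0.835 to 2.18). Most reads of the inducible pair were on Hspa1b, and the interval of Hspa1a spans both directions.

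Hspa1a and Hspa1b are near-identical copies, so how reads were divided between them bears on the value of each. Their promoter windows matched at 296 of 300 positions, and both genes lie on chromosome 17, Hspa1b at 34956429 to 34959238 and Hspa1a at 34969359 to 34972156. Per kilobase of gene span, Hspa1b stood at 6.70 CPM under compression and 8.80 in the control, against 0.633 and 0.471 for Hspa1a. How reads that align to both genes were counted was not given in the sources used here, and the value of each copy is uncertain. The sum of both genes, 500 counts against 653, was 1.27-fold lower (1.12 to 1.42). It does not depend on how shared reads were split between the copies. It would change if such reads were dropped or counted for both genes. Summed, both genes stay within the 1.3-fold limit, and the count of lower members is then 3 (8.11%), against 8.91% of all rows.

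Other Hsp70 members differed little. Hspa9, the mitochondrial Hsp70 (mortalin) that also drives protein import, had 17324 counts against 16663, a ratio of 1.07 (1.05 to 1.10). Hspa2, best known from sperm formation, had 362 against 299, a ratio of 1.25 (1.07 to 1.46). Hspa13 had 5775 against 6834, a ratio of 0.872 (0.842 to 0.903). Hspa14, which works at the ribosome, had a ratio of 1.01 with an interval that included 1 (0.956 to 1.07).

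The Hsp110 genes, Hsp70 relatives that act as nucleotide exchange factors and help to dissolve aggregates, did not share a direction. Hsph1 (Hsp105) had 6172 counts under compression and 8822 in the control, or 254 against 352 CPM, and was 1.39-fold lower (1.34 to 1.43). Hspa4 (Apg-2) had 6187 against 7955 and was 1.25-fold lower (1.21 to 1.29). Hspa4l (Apg-1) had 7263 against 6512, a ratio of 1.15 (1.11 to 1.19). The intervals of the 3 genes do not overlap. The log2 ratio of Hsph1, at -0.47, was above that of 4.18% of the 10817 rows with a mean CPM of at least 5.

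The Hsp90 pair carried the most reads of any family and hardly differed. Hsp90ab1, the constitutive isoform and the member with the most reads, had 56413 counts against 56351, a ratio of 1.03 (1.02 to 1.05). Hsp90aa1, the stress-inducible isoform, had 16514 against 18662, a ratio of 0.913 (0.894 to 0.933). Together they held 0.3002% of counts under compression (0.298 to 0.302) and 0.299% in the control (0.297 to 0.302).

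Of the 11 Hsp40 genes, 7 had intervals that included 1 (63.6%, against 45.1% of all rows), shares that also depend on read counts. Of the 11, 1 was past 1.3-fold. That gene was Dnaja1, a farnesylated partner of Hsc70, with 456 counts against 681, or 18.8 against 27.2 CPM. It was 1.45-fold lower (1.28 to 1.63), the lowest ratio among the 38 members. Its relative Dnaja2 had 4184 against 5137 and was 1.19-fold lower (1.14 to 1.24). The mitochondrial J protein Dnaja3 (Tid1) went the other way, with 3008 against 2825 and a ratio of 1.099 (1.04 to 1.16).

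Class B J proteins did not pass 1.3-fold. Dnajb1 (Hsp40), the stress-inducible partner of Hsp70, had 1935 counts against 1979, a ratio of 1.01 (0.947 to 1.07). Dnajb4 had 823 against 745, a ratio of 1.14 (1.03 to 1.26), and Dnajb5 149 against 189, a ratio of 0.814 (0.652 to 1.01). Dnajb6, which holds back aggregation of polyglutamine proteins, had 744 against 748. Dnajb2, Dnajb12 and Dnajb14 had ratios of 1.05, 1.01 and 0.944, all with intervals that included 1. Dnaja4, of class A, had 46 counts in each library.

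**Figure D2:**
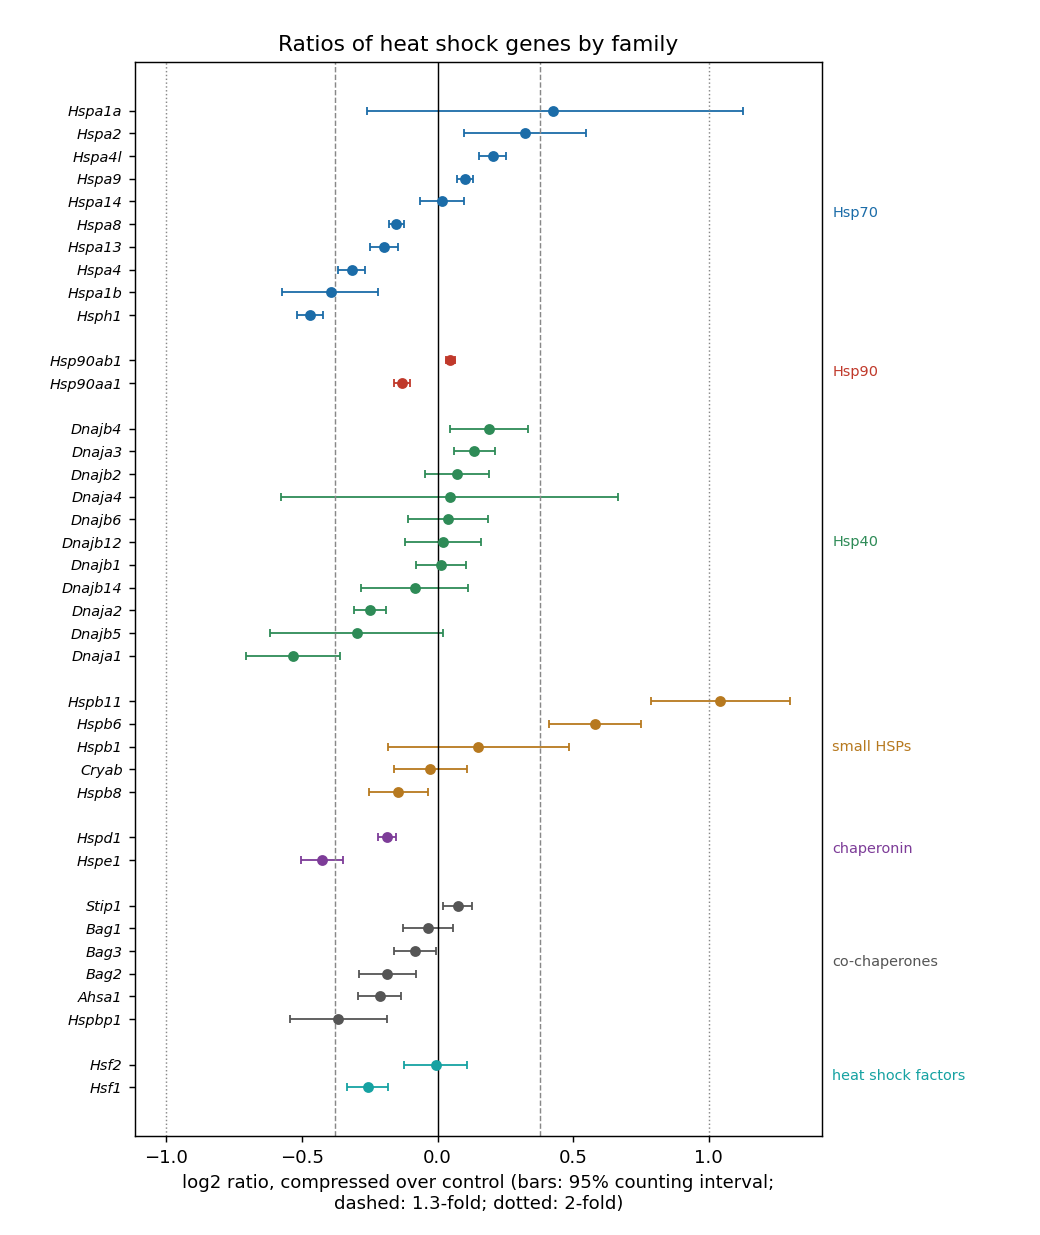
Log2 ratio, compressed over control, for each of the 38 heat shock genes, by family, with bars for the 95% counting interval, dashed lines at 1.3-fold and dotted lines at 2-fold. Hspb11 is the one point beyond a 2-fold line, with a bar that crosses it, and Hspa1a and Dnaja4 have the widest bars.

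Small heat shock genes held both members that were higher at 1.3-fold. Hspb11 had 377 counts under compression and 189 in the control, or 15.5 against 7.54 CPM, a ratio of 2.06 (1.72 to 2.46). The lower end of that interval lies below 2. Hspb6 (Hsp20), a muscle-enriched small heat shock protein, had 700 counts against 483, or 28.8 against 19.3 CPM, a ratio of 1.496 (1.33 to 1.68). Hspb6 meets the gene Lin37 over 3 bases on chromosome 7, and Lin37 had 354 counts against 285, a ratio of 1.28 (1.09 to 1.503).

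Other small heat shock proteins, some of them well known for induction by stress, did not pass 1.3-fold. Hspb1 (Hsp25 in the mouse), an actin-protecting chaperone, had 157 counts against 146, a ratio of 1.11 (0.880 to 1.40). Cryab (alpha-B-crystallin) had 867 against 911, a ratio of 0.982 (0.894 to 1.08). Hspb8, which works with Bag3 in selective autophagy, had 1288 against 1469, a ratio of 0.905 (0.839 to 0.976).

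Both subunits of the mitochondrial chaperonin were lower in the compressed library. Hspd1 (Hsp60), which forms the folding chamber, had 13043 counts against 15306 and was 1.14-fold lower (1.11 to 1.16). Hspe1 (Hsp10), the lid of the chamber, had 2391 against 3316, or 98.5 against 132.3 CPM, and was 1.34-fold lower (1.27 to 1.42). The genes lie head to head on chromosome 1, and their spans overlap by 96 bases at 55088148 to 55088243. The strand setting of the counting is not given, so reads in this overlap cannot be assigned.

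None of the 6 co-chaperones passed 1.3-fold. Intervals lay wholly below 1 in 4 of the 6 (66.7%), against 28.6% of all rows, shares that also depend on read counts. Hspbp1, a nucleotide exchange factor of Hsp70, had 451 counts against 600 and was 1.29-fold lower (1.14 to 1.46), just short of the limit. Ahsa1 (Aha1), which activates the ATPase of Hsp90, had 2389 against 2857 and was 1.16-fold lower (1.10 to 1.22). Stip1 (Hop), the adaptor that links Hsp70 to Hsp90, had 5848 against 5730, a ratio of 1.05 (1.02 to 1.09). It was the one co-chaperone of the 6 above 1.

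The BAG proteins, another group of nucleotide exchange factors, stayed within 1.2-fold. Bag1, which links Hsp70 to the proteasome, had 1852 counts against 1958, a ratio of 0.976 (0.915 to 1.04). Bag2, an inhibitor of the ubiquitin ligase CHIP, had 1359 against 1595, a ratio of 0.879 (0.817 to 0.946). Bag3, a strongly stress-inducible member that takes part in autophagy of mechanically strained filamin, had 2550 against 2788, a ratio of 0.944 (0.894 to 0.996).

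The transcription factors themselves differed little. Hsf1 had 2640 counts against 3257 and was 1.196-fold lower (1.14 to 1.26). Hsf2, which can form trimers with Hsf1, had 1184 against 1227, a ratio of 0.996 (0.919 to 1.08). Hsf1 is controlled mainly after translation, so its transcript level is no measure of its activity.

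By summed counts, the families ordered from the mitochondrial chaperonin, with a ratio of 0.855 (0.837 to 0.874), and the heat shock factors, with 0.880 (0.843 to 0.919), to the small heat shock genes, with 1.09 (1.04 to 1.15). Without Hspb11 the small heat shock genes had 1.03 (0.983 to 1.09), and without Hspb11 and Hspb6 they had 0.946 (0.894 to 1.00). Hsp70 members had 0.931 (0.922 to 0.941), Hsp40 members 0.960 (0.938 to 0.982), co-chaperones 0.960 (0.939 to 0.982) and Hsp90 1.00 (0.993 to 1.01). The intervals of Hsp40 and of the co-chaperones overlap almost wholly, and those of the chaperonin and the heat shock factors overlap as well. Median log2 ratios per family ran from -0.31 over the 2 chaperonin genes to 0.15 over 5 small heat shock genes. They were -0.07 over 10 Hsp70 genes, 0.02 over 11 Hsp40 genes and -0.13 over 6 co-chaperones. The Hsp70 values, summed and median, include the Hsp110 genes. Without those the median was 0.02 over 7 genes, with 4 ratios above 1 and 3 below.

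**Figure D3:**
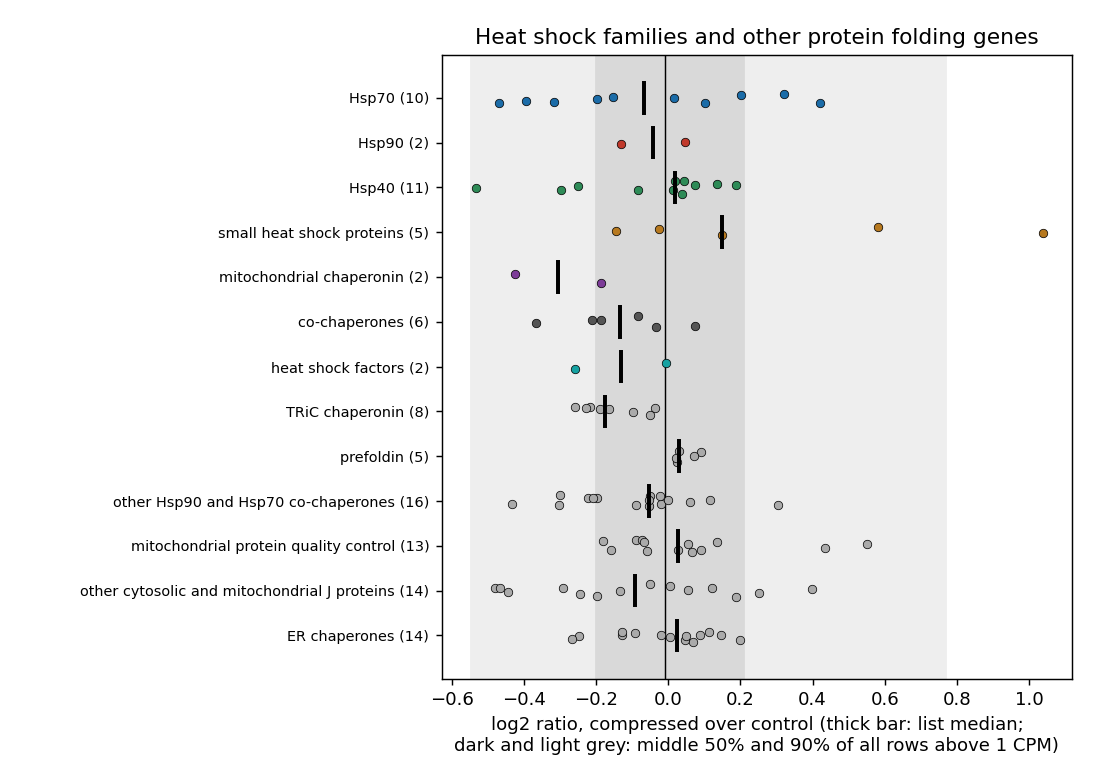
Log2 ratios of the 7 heat shock families (coloured) and of 6 other protein folding lists (grey), with a thick bar for each median and the number of genes above 1 CPM in brackets, over bands that hold the middle 50% (-0.20 to 0.21) and 90% (-0.55 to 0.77) of all rows. Most heat shock genes lie inside the wider band, and all 8 TRiC genes lie below 0.

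Elements of 2 units were found in 15 of 45 member windows (33.3%), against 15.1% of all 32851 windows in the table. Elements of 3 units were found in 6 of the 45 (13.3%), against 0.603% of all windows, though windows of the same or neighbouring genes overlap and the 6 hold 3 distinct elements. By gene, 13 of 33 members (39.4%) held 2 units, against 17.0% of all genes in the table, and 4 (12.1%) held 3 units, against 0.662%, namely Hspd1, Hspe1, Hsph1 and Dnajb6. The element upstream of Hspe1 has 4 units in a row, at 55088059 to 55088076 on chromosome 1. It lies inside the annotated span of Hspd1, upstream of an inner Hspd1 start at 55087932, and the window of the outer start at 55088243 held no match. All 4 members lower at 1.3-fold, whose sequences are printed above, held at least 2 units in at least 1 window. They are among 13 members above 1 CPM with a match, of which 1 was higher. The match of Dnaja1 is in the window of its start at 40722468, and the windows of its starts at 40722922 and 40722930 held none. Of the 18 members above 1 CPM with a window and no match, 0 were lower and 1 was higher, and 9 had log2 ratios below 0. These are few genes, and a link between a match and the direction was not tested.

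Across the whole table the shares with and without a match were close. Of 1255 rows above 1 CPM with a 2-unit match, 8.61% were lower at 1.3-fold, against 8.19% of 7812 rows without one. Among members with a match, log2 ratios ran from -0.53 for Dnaja1 to 0.58 for Hspb6, with 7 of 13 below 0. Of the 4 members with 3 units, 2 were lower at 1.3-fold (50%), 0 were higher and 3 had log2 ratios below 0. Their median log2 ratio was -0.31, against 0.01 for 27 members without 3 units, of which 2 were lower (7.41%) and 2 higher. Across all rows, 8.93% of 56 with 3 units were lower, against 8.25% of 9011 without. The 4 genes are few, Hspd1 and Hspe1 share an element, and a link was not tested. Dnajb6, with 3 units upstream of its start, had a ratio of 1.03 (0.926 to 1.14), and Hspb1, with a pair of 2-unit matches, had 1.11. A match describes the letters in a window and not binding, and the element of Hspb6 lies upstream of a second annotated start.

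Other protein folding genes were counted at the same 1.3-fold limit, past which 12.2% of all rows were higher and 8.92% lower. The TRiC chaperonin, the cytosolic ring that folds actin and tubulin, had 0 of 8 subunits past it in either direction, but all 8 had ratios below 1, from 0.836 (0.808 to 0.865) for Cct3 and 0.854 for Cct8 to 0.966 for Cct2 and 0.974 (0.948 to 1.00) for Tcp1. The median log2 ratio of TRiC was -0.18, and 51.4% of all rows had ratios below 1. Prefoldin, which hands actin and tubulin to TRiC, had 0 of 5 past the limit and a median of 0.03, from 1.01 for H2-Ke2 (the Pfdn6 gene) and 1.02 for Pfdn2 to 1.05 for Vbp1 and 1.07 for Pfdn5.

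Further Hsp90 and Hsp70 co-chaperones had 1 of 16 lower and 0 higher, against 8.92% and 12.2% of all rows. Their median log2 ratio was -0.05. The lower gene was Chordc1, an Hsp90 partner, with 367 counts against 512 and a ratio of 0.740 (0.645 to 0.847). The cyclophilin Ppid followed at 0.810 (0.768 to 0.854). The highest were Bag6, which guards tail-anchored proteins, at 1.23 (1.202 to 1.27), and Sugt1 at 1.08 (0.982 to 1.195).

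Protein quality control genes of mitochondria included values on both sides of 1. The list had 2 of 13 members higher and 0 lower, against 12.2% and 8.92% of all rows. Its median log2 ratio was 0.03. Lonp1, the main protease of the mitochondrial matrix, had 6403 counts against 4506, a ratio of 1.47 (1.41 to 1.52). Hscb, a J protein of iron-sulfur cluster assembly, had 164 against 125, a ratio of 1.35 (1.07 to 1.72). Trap1, the mitochondrial Hsp90, had a ratio of 0.895 (0.846 to 0.946) and the protease Htra2 of 0.882 (0.820 to 0.948).

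Further J proteins had 3 of 14 lower and 0 higher, against 8.92% and 12.2% of all rows, counts too small to read. Their median log2 ratio was -0.09. The lowest were Dnajc11, a protein of mitochondrial cristae, with 1302 counts against 1874 and a ratio of 0.717 (0.667 to 0.770), and Dnajc24, which takes part in diphthamide synthesis, at 0.724 (0.612 to 0.855). The third was Dnajc27, at 0.735 (0.641 to 0.841), named because it completes that count. The highest were Dnajc28 at 1.32 (0.992 to 1.76) and Dnajc5, a synaptic vesicle chaperone, at 1.19 (1.14 to 1.24). Endoplasmic reticulum chaperones had 0 of 14 past the limit and a median of 0.02, from Sdf2l1 at 0.831 and Dnajb11 at 0.842 to Hsp90b1 at 1.11 and Dnajb9 at 1.15.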

How the data were processed

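Both libraries are in 1 deposited table of whole-number read counts per gene with a gene type. The submitters' processing notes name HISAT2 and build GRCm38. Which tool and annotation version counted the reads, with which strand setting, and how multiply aligned reads were treated was not given in the sources used here. No normalization is carried by the authors' deposited counts. They were scaled by TMM in edgeR 4.0.16 (R 4.3.3) to effective library sizes. CPM, ratios and exact 95% conditional binomial intervals were computed on these sizes (scipy 1.17.1). Sequenced reads are not independent molecules, so intervals cover counting error only.

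A row passed a fold limit of 1.3 or 2 with 1 CPM or more in either library, a ratio past the limit at a prior count of 0.5, and an interval that excluded 1. No count model can be fitted with 1 library per group. Symbols, positions and promoter sequences are from RefSeq tables of GRCm38.p6, which matched all 40 members by symbol. Levels of different genes were not compared, except for the Hspa1a and Hspa1b pair per span, since transcript lengths were not used here.

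All 40 members are accounted for. Of each other list, the 2 highest and 2 lowest ratios were named. Members, families and lists were chosen with earlier results of these data known. Alternatives were other scalings (total counts, DESeq2 1.42.0, upper quartile, loess), CPM minimums, folds, prior count and no interval. In further runs Hspa1a, Hspa1b and Hspa8 were removed, or Hspa1a and Hspa1b were summed. Some rows of the table are not reported here.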

Additional observations from a re-analysis of the deposited data

How the results depend on the processing

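The counts of heat shock genes past 2-fold and 1.3-fold were the same under total-count scaling, DESeq2 size factors, upper-quartile factors and the loess fit. They were also the same with no CPM minimum and a CPM minimum of 5. The first 3 scalings hardly differ from TMM, so equal counts there say little. The compressed library had sizes of 24285887 by TMM, 24296292 by total counts, 24387279 by DESeq2 and 24195666 by upper quartile. Without Hspa1a, Hspa1b and Hspa8, 3 genes were lower at 1.3-fold (8.57% of members), against 8.92% of all rows. At a limit of 1.5-fold, 1 gene was higher, against 7.31% of all rows, and 0 were lower, against 3.71%. At 1.2-fold 3 were higher and 6 lower, against 16.6% and 14.7% of all rows. With no interval requirement 3 were higher and 4 lower at 1.3-fold, against 14.9% and 10.9%. At a CPM minimum of 20, added after seeing the data, 0 of 31 members were higher at 2-fold and 1 at 1.3-fold, because Hspb11 lies below that minimum, and 4 were lower (12.9% of members), against 1.05%, 7.98% and 7.08% of all rows. The median log2 ratio of the heat shock genes stayed below 0 in every alternative run, between -0.08 and -0.02. In the same runs the median of all rows lay between -0.03 and 0.02. Both lowest medians, -0.08 and -0.03, are those at a CPM minimum of 20. Under the same scalings all 8 TRiC genes and both chaperonin genes stayed below a ratio of 1, while 2 members with intervals that include 1 changed side, Hsf2 with upper-quartile factors and the loess fit, and Dnaja4 with the loess fit. Of the 16 further co-chaperones 3 had ratios above 1, 4 with upper-quartile factors and 6 with the loess fit. No paired analysis was possible because each group has 1 library. The design allows no estimate of the spread between cultures. Any of these differences, of whatever fold and with however narrow a counting interval, may be no larger than that spread.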

Other observations

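Some heat shock genes overlap noncoding genes that differed more than the members did. Gm6297, a lncRNA whose span covers 374 bases at the 5′ end of Dnaja1 on chromosome 4, had 57 counts under compression and 21 in the control, a ratio of 2.80 (1.67 to 4.86), while Dnaja1 was 1.45-fold lower. 4930426I24Rik, which overlaps Hspa2 by 183 bases on chromosome 12, had 16 counts against 1, below 1 CPM in both libraries. The interval of its ratio of 16.5 ran from 2.56 to 692, and such low counts are hard to read. Since the strand setting is unknown, counts of overlapping genes are uncertain. Hspa8 hosts 3 small nucleolar RNA genes of the Snord14 group in its introns. Snord14c had 51 counts against 45, Snord14d 63 against 93 and Snord14e 37 against 61, with ratios of 1.17 (0.768 to 1.79), 0.699 (0.499 to 0.973) and 0.626 (0.404 to 0.957). These genes were chosen after their values were seen.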
